A study of Mus musculus with 12 samples.

Results

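Genes of the unfolded protein response and of the amino acid stress response were followed across 12 arrays of cultured mouse fibro/adipogenic progenitors (FAPs). FAPs are stromal cells of muscle, marked by the PDGF receptor PDGFRα, that can become fibroblasts or adipocytes. The members are the 36 genes of a named list, found by gene symbol among the 19938 genes to which the platform annotation gives a transcript cluster of their own, and all 36 were measured. For Dnajc3 and Pdia4, which have more than 1 such cluster, the brighter was used. The members fall into 16 genes of the Atf4 arm, 3 transcription factors of the endoplasmic reticulum (ER), 14 ER chaperones and folding enzymes, and 3 genes of ER-associated degradation. The cells came from uninjured hindlimb muscle of wild-type male C57/Bl6 mice aged 8-12 weeks, and each replicate pools cells of 2 mice. After 2.5 days of growth they were transfected with 10 µM of an antisense oligonucleotide (AMO) for 48 hours, then again with the same AMO for another 48 hours in a low-serum medium (Opti-Mem), with or without the growth factor PDGF-AA. The 6 groups of 2 arrays are pA AMO, 5'ss AMO and control AMO, each with a PDGF-AA dose that the labels give as 50 uM and each without it. The pA and 5'ss AMOs are directed at an intronic polyadenylation site of Pdgfra and at a 5′ splice site, and every group, control included, was transfected.

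Cells meet unfolded protein in the ER through 3 sensors. The kinase PERK phosphorylates the initiation factor eIF2α, which slows translation but favours that of the transcription factor ATF4. Amino acid shortage reaches ATF4 through another eIF2α kinase, GCN2, so the genes of amino acid synthesis and import are shared between both responses. The other sensors act through transcription: IRE1 splices the mRNA of XBP1, ATF6 is cut to release a factor, and both factors switch on ER chaperones and degradation genes. Fibroblasts that secrete collagen depend on these chaperones, and CREB3L2, a relative of ATF6, serves collagen secretion in cartilage of the mouse. XBP1 splicing, ATF6 cleavage and eIF2α phosphorylation are not read by these arrays, which report total mRNA of each gene.

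The sequences below show elements in the promoters of both arms. The rule that picked the members used gene symbols and no sequence, but the arms are known target sets of factors that act through these elements, so their presence is a description and not independent of membership. RefSeq (GRCm38.p6) gives a promoter window of 300 bases, from 250 before to 50 after the gene start, for 32 of the 36 members, and 32851 windows over 27025 genes served as background. The ER stress element, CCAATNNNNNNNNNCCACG on either strand, was in 0.119% of all windows and in those of 7 of the 12 ER chaperones with a window, namely Hspa5, Hsp90b1, Dnajc3, Calr, Canx, Pdia6 and Creld2. Its short form, ATTGGNCCACG, was in 0.0365% of windows, and among members in those of Dnajb11 and Herpud1. The C/EBP-ATF composite element, TGATGNAA, through which ATF4 acts on its targets, was in 3.97% of windows and in those of 6 of 15 genes of the Atf4 arm, namely Trib3, Asns, Chac1, Nupr1, Slc7a11 and Vldlr. Herpud1 carried the composite element besides the short ER stress element. None of the 15 Atf4-arm windows held either form of the ER stress element, and none of the 12 chaperone windows held the composite element. No matches of different elements overlapped. A match is a run of letters and not a measured site. Promoters without a match, such as those of Atf4, Ddit3 and Sdf2l1, lack only these letters in this window. The 2 promoters printed whole, 1 from each arm, end at the base before the gene start, with the matched letters of the element in capitals.
Hspa5 promoter, chr2:34771840-34772089, plus strand: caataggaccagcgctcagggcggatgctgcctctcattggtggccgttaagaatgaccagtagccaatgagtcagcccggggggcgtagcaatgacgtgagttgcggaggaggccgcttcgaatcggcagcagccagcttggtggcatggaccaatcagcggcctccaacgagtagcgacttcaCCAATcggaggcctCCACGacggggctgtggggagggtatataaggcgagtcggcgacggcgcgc
Asns promoter, chr6:7693210-7693459, minus strand: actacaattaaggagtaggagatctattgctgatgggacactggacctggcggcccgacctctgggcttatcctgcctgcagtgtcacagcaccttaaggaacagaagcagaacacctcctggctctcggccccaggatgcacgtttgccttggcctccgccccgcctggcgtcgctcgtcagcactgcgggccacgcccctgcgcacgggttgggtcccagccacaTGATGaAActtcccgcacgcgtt

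Short stretches around the match were chosen, after the matches were seen, for members on which the results below turn. Each is printed along the element, with the matched letters in capitals, on GRCm38.p6.
Calr, ER stress element, chr8:84847065-84847103, plus strand: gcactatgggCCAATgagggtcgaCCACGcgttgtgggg
Pdia6, ER stress element, chr12:17266481-17266519, plus strand: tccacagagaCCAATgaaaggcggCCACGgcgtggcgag
Dnajb11, short ER stress element, chr16:22857843-22857871, plus strand: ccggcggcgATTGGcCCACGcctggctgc
Herpud1, short ER stress element, chr8:94386368-94386396, plus strand: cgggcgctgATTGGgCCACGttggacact
Herpud1, composite element, chr8:94386306-94386335, minus strand: ggggtgcgggcTGATGcAAcccgccgtggt
Trib3, composite element, chr2:152344028-152344057, plus strand: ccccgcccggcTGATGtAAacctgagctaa
Chac1, composite element, chr2:119351038-119351067, minus strand: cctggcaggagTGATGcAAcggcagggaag
Slc7a11, composite element, chr3:50443661-50443690, minus strand: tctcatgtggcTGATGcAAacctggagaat
Vldlr, composite element, chr19:27216809-27216838, minus strand: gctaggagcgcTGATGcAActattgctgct
Slc7a11 holds a further composite element on the opposite strand, and its printed stretch overlaps the one above. In Trib3 the element lies 15 bases after the gene start, and in Vldlr it begins upstream of it.

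The deposited values are log2 expression values, and every level and difference below is on that scale. Array medians lay between 6.04 and 6.23. The FAP markers were present on every array, with Pdgfra itself between 12.72 and 12.92 and Dcn between 13.15 and 13.48. The dimmest of them were Thy1 (8.38 to 8.97), Dpp4 (7.32 to 8.70) and Pi16 (6.46 to 7.76). The cluster of Pdgfra does not separate full-length from truncated transcripts, so it does not check the AMOs. In bulk cultures, fewer cells of a type and less RNA per cell cannot be told apart. Summed linear signals of the 10 FAP and fibroblast markers ran from 45288 to 48570 over all groups. Those of other cells varied more, with the 7 adipocyte markers between 4096 and 7816 and the 11 myogenic markers between 1560 and 4537. In the FAP and fibroblast sum Vim, Dcn and Col3a1 weigh most (means 13.35, 13.32 and 13.02), so it says little of the dimmer markers. With PDGF-AA, averaged over AMOs, 5 of the 10 lay above 0 (median 0.006). The largest changes were those of Dpp4 at 0.48 (SE 0.157) and Pi16 at -0.14 (SE 0.143). The number of arrays limits the precision of what follows. The p-values rest on the spread between replicates, each a pool of cells of 2 mice by the labels. Whether same-numbered arrays of different groups share a pool is not said.

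The ER chaperones kept a narrow range across the 12 arrays, while that of the Atf4 arm was near the range of other bright clusters. The difference between the highest and the lowest array had a median of 0.28 over the 36 members, of 0.25 over the ER chaperones and of 0.37 over the Atf4 arm. Over all 21789 clusters tested the median range was 0.46, and over the 10127 clusters at least as bright as the dimmest member it was 0.35. Canx, a lectin chaperone that holds newly made glycoproteins, had the smallest range among the members (0.12), followed by Hspa5 (0.14), the HSP70 chaperone BiP at the centre of ER folding. Slc7a11, which encodes the cystine importer xCT, had the largest (0.94), followed by Phgdh (0.62), the first enzyme of serine synthesis. The chaperone clusters are also the brighter ones (median of their means 10.93, and 8.91 for the Atf4 arm), and the part of brightness in these ranges was not tested.

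**Figure D1:**
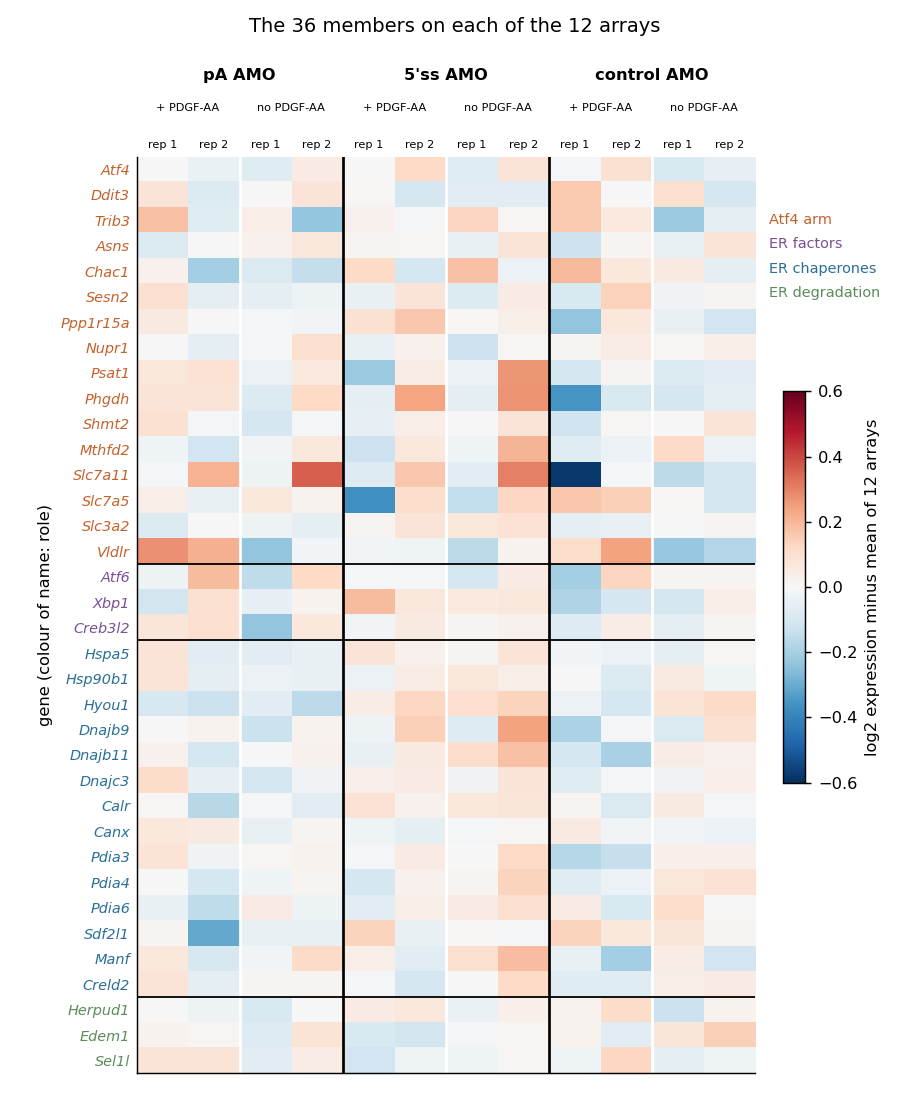
Deviation of each of the 36 members (rows, grouped by role) from its own mean of 12 arrays, in log2 units, on each array (columns, grouped by AMO, with PDGF-AA left of without). Most cells are pale; the darkest is Slc7a11 on the first array with control AMO and PDGF-AA, at 7.61 against a mean of 8.19.

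The first comparison asks whether PDGF-AA, on average over the 3 AMOs, moved the ER chaperones and the Atf4 arm apart. The chaperones lay slightly lower with PDGF-AA, with a median log2 change of -0.055 and 3 of 14 above 0, and the Atf4 arm was centred on 0 (median 0.004, 8 of 16 above 0). Over all clusters the median was 0.001 and 50.8% lay above 0. In limma, with p-values adjusted by Benjamini-Hochberg over 21789 clusters, 0 of 36 members passed the threshold of 0.05, as did 0% of all clusters. With the replicate block 0 members passed, against 0.0964% of clusters. At an unadjusted p under 0.05 there were 2 members (5.56%), Vldlr and Dnajb11, against 3.39% of all clusters. No member had separate ranges with and without PDGF-AA over the 6 arrays of each, which 0.28% of all clusters had. The 95% interval of the change reached 0.13 to either side for the median member and 0.27 for the widest, Slc7a11, before any adjustment over clusters. The adjusted threshold asks for more, and a change of the size of Vldlr's, given after the other members of its arm, was not called at this number of arrays.

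Within the Atf4 arm, the regulators came first. Atf4, the factor that gives the arm its name, read 9.01 and 8.97 for pA AMO, 9.01 and 9.13 for 5'ss AMO, and 9.0 and 9.10 for control AMO, all with PDGF-AA. Without it the arrays read 8.94 and 9.06 for pA AMO, 8.94 and 9.09 for 5'ss AMO, and 8.92 and 8.96 for control AMO. These overlap but for control AMO, and the averaged change was 0.05 (SE 0.057, adjusted p = 1 in limma). Ddit3 encodes CHOP, a factor tied to cell death under lasting stress. It stood at 9.0 and 8.84, 8.93 and 8.82, and 9.08 and 8.92 with PDGF-AA in pA, 5'ss and control AMO cultures. The arrays without PDGF-AA gave 8.92 and 9.0, 8.86 and 8.86, and 9.02 and 8.82 for the same AMOs. No AMO separated them, and the averaged change was 0.02 (SE 0.064). Nupr1, a small stress-induced nuclear protein, was at 0.00 (SE 0.054).

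Trib3 encodes a pseudokinase that restrains AKT and is a target of both ATF4 and CHOP. With PDGF-AA it read 7.39 and 7.14 for pA AMO, 7.24 and 7.20 for 5'ss AMO, and 7.37 and 7.27 for control AMO. Cultures without PDGF-AA read 7.25 and 6.98 for pA AMO, 7.34 and 7.22 for 5'ss AMO, and 6.99 and 7.16 for control AMO. The arrays with PDGF-AA were all the higher ones only in control AMO cultures, where the difference was 0.25 (SE 0.128, adjusted p = 0.984 in limma). It was 0.15 (SE 0.128) with pA AMO, -0.06 (SE 0.128) with 5'ss AMO, and 0.11 on average (SE 0.074). The pA value was 0.01 without the second array lacking PDGF-AA and 0.29 without the first, and the average was 0.07 and 0.16 in those fits. Chac1, an enzyme that degrades glutathione, read 7.46 and 7.23, 7.55 and 7.33, and 7.63 and 7.50 with PDGF-AA in pA, 5'ss and control AMO cultures. Without PDGF-AA it read 7.35 and 7.29, 7.61 and 7.40, and 7.49 and 7.38. Only the control AMO arrays were separate, and the averaged change was 0.03 (SE 0.072). Sesn2, a leucine sensor that holds back mTORC1, was at 0.04 (SE 0.064), and Ppp1r15a, which directs the phosphatase that reverses eIF2α phosphorylation, at 0.05 (SE 0.063).

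Apart from Slc7a5, the averaged changes of the enzymes and carriers of amino acids lay slightly below 0, and none passed the threshold. Most of the other genes of the arm lay above 0 on average, so its median near 0 spans these groups. Asns makes asparagine and is a standard readout of the amino acid response. It read 10.09 and 10.17 for pA AMO, 10.19 and 10.18 for 5'ss AMO, and 10.05 and 10.19 for control AMO under PDGF-AA. The arrays without PDGF-AA read 10.20 and 10.24, 10.13 and 10.25, and 10.13 and 10.25 for the same AMOs. The pA arrays with PDGF-AA were the lower ones, the others overlapped, and the averaged change was -0.05 (SE 0.057). Among the serine synthesis enzymes, Phgdh was at -0.04 (SE 0.085) and Psat1, which makes phosphoserine, at -0.04 (SE 0.073). With 5'ss AMO, Psat1 read 8.68 and 8.95 with PDGF-AA, against 8.87 and 9.17 without it, a difference of -0.21 (SE 0.127, adjusted p = 1) that was -0.06 without the second array lacking PDGF-AA and -0.36 without the first. Shmt2 and Mthfd2, which carry serine-derived carbon units in mitochondria, were at -0.02 (SE 0.057) and -0.10 (SE 0.066). The cystine importer Slc7a11 was at -0.10 (SE 0.119). Slc7a5, the carrier of large neutral amino acids, was at 0.01 (SE 0.087) on average. It read 8.78 and 9.25 for 5'ss AMO and PDGF-AA, against 9.0 and 9.27 without PDGF-AA, and its change of -0.12 (SE 0.151) turned to 0.12 without the first array with PDGF-AA. Slc3a2, the chain that both carriers share, was at -0.03 (SE 0.050).

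Vldlr stood out among the members by size. It encodes the receptor for very low density lipoprotein and is a target of ATF4 under ER stress in the mouse. With pA AMO it read 9.94 and 9.88 with PDGF-AA, against 9.43 and 9.65 without it. With control AMO it read 9.77 and 9.91 with PDGF-AA, against 9.44 and 9.49 without it. With 5'ss AMO it read 9.65 and 9.64 with PDGF-AA, against 9.51 and 9.69 without it. All arrays with PDGF-AA were above those without it in the pA and control AMO cultures, and the 5'ss arrays overlapped. The averaged change was 0.26 (SE 0.063, 95% interval 0.12 to 0.40, 6 arrays against 6) with an adjusted p of 0.539 in limma, the smallest of any member, and 0.13 with the replicate number as a block. Within AMOs it was 0.37 (SE 0.109, adjusted p = 1) with pA AMO, 0.04 (SE 0.109, adjusted p = 1) with 5'ss AMO, and 0.37 (SE 0.109, adjusted p = 0.81) with control AMO. The difference between these effects was -0.33 for 5'ss minus control AMO (SE 0.155, 95% interval -0.67 to 0.02) and 0.33 for pA minus 5'ss AMO (95% interval -0.02 to 0.67), with an adjusted p of 1 for each.

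Markers of other cell types were set beside Vldlr. The summed linear signal of the 6 smooth muscle and pericyte markers was 813 to 936 with PDGF-AA against 949 to 971 without it in pA AMO cultures, and 750 to 814 against 1010 to 1036 in control AMO cultures. With 5'ss AMO it was 1027 to 1053 with PDGF-AA against 1055 to 1086 without it. Most of this sum is Abcc9 and Kcnj8 (means 8.91 and 7.52), while Rgs5 averaged 4.93 and Myh11 5.97. Gene by gene, the smooth muscle and pericyte markers did not all follow the sum. Their median change was 0.010 with pA AMO (4 of 6 above 0), -0.134 with control AMO (2 of 6) and -0.024 with 5'ss AMO (3 of 6). The summed signal of the 7 adipocyte markers was 4262 to 6315 with PDGF-AA against 4464 to 6460 without it for pA AMO, and 4192 to 6570 against 4495 to 6587 for control AMO. For 5'ss AMO it was 5671 to 7816 against 4096 to 6116. Lpl was the brightest of these adipocyte markers (mean 11.99, with Pparg next at 8.46) and weighs most in that sum. Taken gene by gene, the adipocyte markers had a median change of -0.400 with control AMO (1 of 7 above 0). Their median was -0.395 with pA AMO (2 of 7 above 0) and 0.876 with 5'ss AMO (7 of 7). The interval of the median adipocyte marker reached 1.26 to either side within each AMO. The summed signal of the 7 macrophage and leukocyte markers was 487 to 489 with PDGF-AA against 519 to 522 without it for pA AMO, and 432 to 474 against 531 to 545 for control AMO. For 5'ss AMO it was 484 to 564 against 539 to 545, so the arrays overlapped there. Lyz2 had the largest change of that list in each AMO, at -0.24 with pA, -0.84 with control and 0.24 with 5'ss AMO. The list as a whole had a median change of -0.014 with control AMO (3 of 7 above 0, with Adgre1 at 0.34). Its median was -0.031 with pA AMO (2 of 7 above 0) and 0.008 with 5'ss AMO (4 of 7). In that list Ptprc averaged 5.01, Adgre1 4.12 and Csf1r 5.75, under the median of every array, while Cd68 was at 7.23. The 7 endothelial markers summed to 866 to 900 with PDGF-AA against 809 to 856 without it for pA AMO, 854 to 898 against 803 to 807 for 5'ss AMO, and 831 to 1047 against 822 to 905 for control AMO. Tek was the brightest of them (mean 8.80, with Cdh5 next at 7.20) and weighs most in that sum. Averaged over AMOs, 5 of 7 lay above 0, while Emcn (mean 4.40) was at -0.19 (SE 0.053). Myogenic markers overlapped in summed signal in every AMO. For pA AMO the 11 of them summed to 2077 to 2820 with PDGF-AA against 2545 to 4537 without it. Their median change was -0.456 with pA AMO (0 of 11 above 0), 0.070 with control AMO (9 of 11) and 0.097 with 5'ss AMO (8 of 11). The interval of the median myogenic marker reached 0.68 to either side. The part of any of these lists in the values of Vldlr was not tested.

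Among the chaperones, Dnajb11 had the largest averaged change. It encodes a DNAJ co-chaperone that hands unfolded clients to BiP. The arrays with PDGF-AA read 9.25 and 9.12 for pA AMO, 9.18 and 9.28 for 5'ss AMO, and 9.12 and 9.03 for control AMO. Those without PDGF-AA read 9.23 and 9.25, 9.33 and 9.40, and 9.27 and 9.25. The 5'ss and control AMO arrays with PDGF-AA were the lower ones and the pA arrays overlapped. The averaged change was -0.12 (SE 0.054, 95% interval -0.24 to 0.00, adjusted p = 1 in limma). Manf, a secreted protein that binds BiP, was at -0.10 (SE 0.064) on average. With 5'ss AMO it read 9.17 and 9.07 with PDGF-AA, against 9.23 and 9.32 without it, a difference of -0.15 (SE 0.111).

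The disulfide isomerases all lay below 0 on average, with -0.07 for Pdia3 (SE 0.053), -0.10 for Pdia4 (SE 0.055) and -0.09 for Pdia6 (SE 0.057), each at an adjusted p of 1. Pdia3, which works with the lectin chaperones on glycoproteins, read 11.98 and 12.01 for control AMO and PDGF-AA, against 12.18 and 12.18 without PDGF-AA. That difference of -0.19 (SE 0.091, 95% interval -0.39 to 0.01, adjusted p = 0.984) was the largest among chaperones within an AMO. With pA AMO Pdia3 was at 0.02 (SE 0.091) and with 5'ss AMO at -0.05 (SE 0.091). Pdia6 read 11.86 and 11.75 for pA AMO and PDGF-AA, against 11.95 and 11.87 without PDGF-AA, a difference of -0.11 (SE 0.099) that was -0.05 without the second array with PDGF-AA and -0.16 without the first. Creld2, an ER protein tied to disulfide handling, was at -0.08 (SE 0.055) on average.

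Hspa5 and the remaining chaperones gave averaged changes between -0.07 and 0.03. Hspa5 read 12.67 and 12.53 for pA AMO, 12.67 and 12.62 for 5'ss AMO, and 12.58 and 12.56 for control AMO under PDGF-AA. Without PDGF-AA it read 12.53 and 12.55, 12.61 and 12.67, and 12.54 and 12.60. These overlap in every AMO, and the averaged change was 0.02 with a 95% interval from -0.09 to 0.14. Hsp90b1, the HSP90 chaperone of the ER, was at -0.02 (SE 0.054), Dnajc3, a co-chaperone that also restrains PERK, at 0.02 (SE 0.056), and the lectin chaperones Calr and Canx at -0.04 (SE 0.056) and 0.03 (SE 0.050). Hyou1, a nucleotide exchange factor for BiP, was at -0.07 (SE 0.051). Dnajb9, a co-chaperone and XBP1 target, read 8.88 and 8.90, 8.85 and 9.02, and 8.69 and 8.87 with PDGF-AA in pA, 5'ss and control AMO cultures. It read 8.75 and 8.90, 8.80 and 9.12, and 8.79 and 8.97 without PDGF-AA, with overlap in every AMO and an averaged change of -0.02 (SE 0.076). Sdf2l1, part of the BiP and Dnajb11 complex, read 8.59 and 8.27, 8.71 and 8.53, and 8.71 and 8.64 with PDGF-AA. Without PDGF-AA it read 8.53 and 8.53, 8.58 and 8.57, and 8.65 and 8.59. Its second pA array with PDGF-AA was the lowest of the 12, and the pA change of -0.10 (SE 0.118) turned to 0.06 without that array.

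The transcription factors and degradation genes gave small changes in both directions. Xbp1, whose total mRNA includes spliced and unspliced forms, read 10.93 and 11.13 for pA AMO, 11.23 and 11.11 for 5'ss AMO, and 10.86 and 10.94 for control AMO under PDGF-AA. Without PDGF-AA it read 10.99 and 11.06, 11.10 and 11.11, and 10.94 and 11.08. The averaged change was -0.02 (SE 0.061). Atf6 was at 0.02 (SE 0.080) and Creb3l2 at 0.06 (SE 0.065). Herpud1, a scaffold of the degradation machinery and the member with elements of both kinds in its promoter, read 10.08 and 10.05, 10.13 and 10.15, and 10.10 and 10.19 with PDGF-AA. Its arrays without PDGF-AA read 9.99 and 10.08, 10.04 and 10.11, and 9.95 and 10.10. The 5'ss arrays with PDGF-AA were the higher ones, the others overlapped, and the averaged change was 0.07 (SE 0.055, adjusted p = 1). Edem1, which leads misfolded glycoproteins to degradation, was at -0.07 (SE 0.054), and Sel1l, the adaptor of the HRD1 ubiquitin ligase, at 0.04 (SE 0.055).

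**Figure D2:**
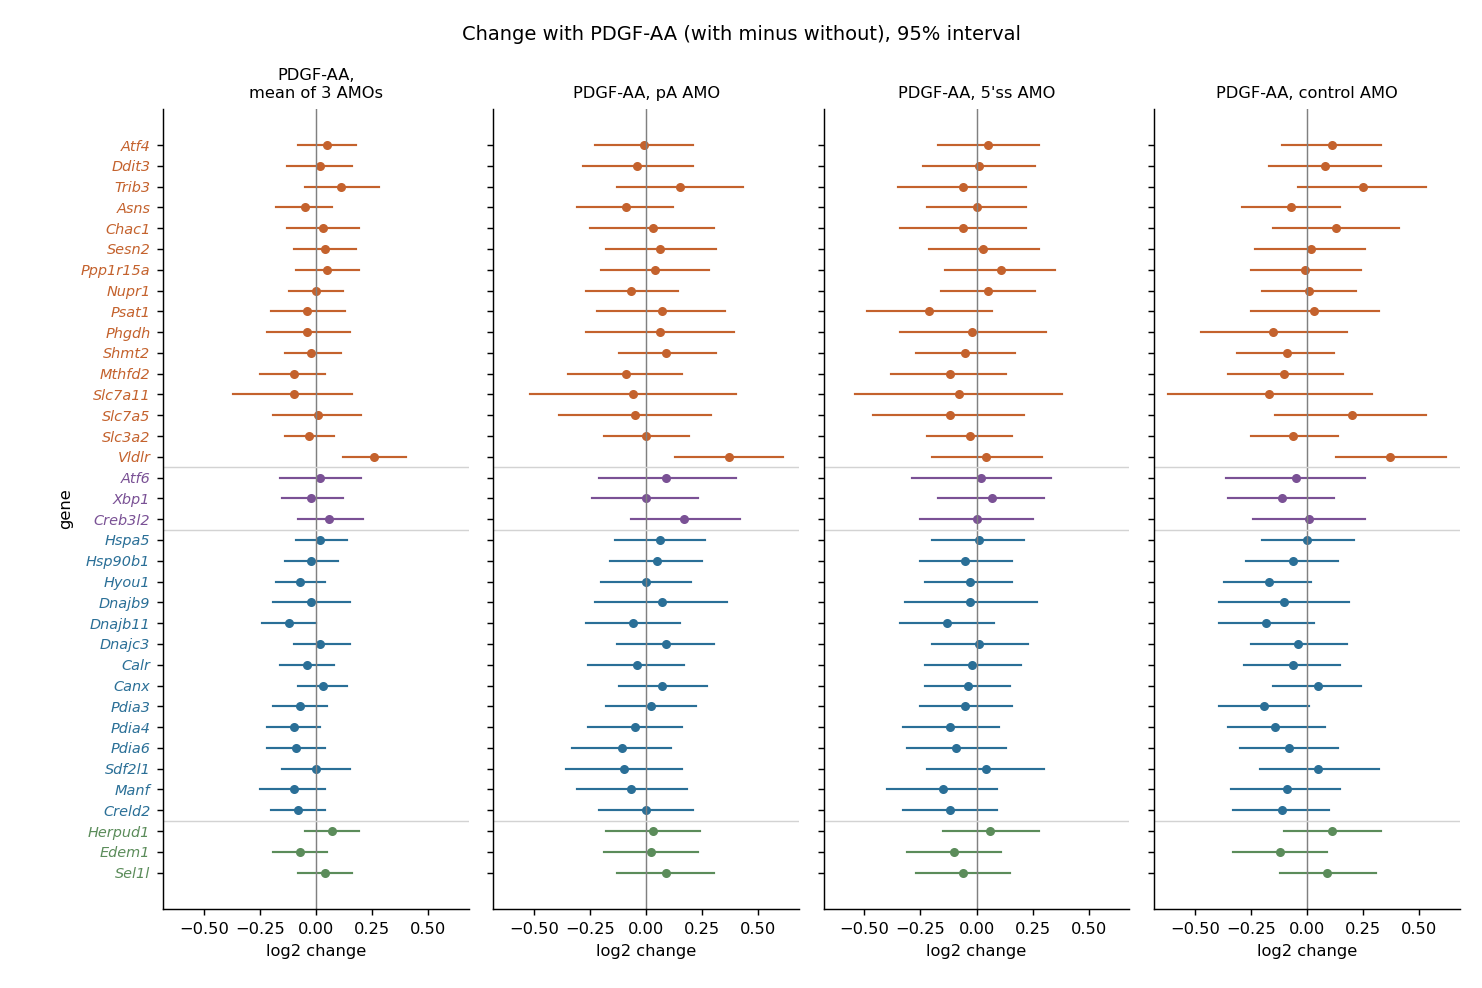
Log2 change of each member with PDGF-AA (with minus without; points) and its 95% interval (lines), averaged over the AMOs and within pA, 5'ss and control AMO; colours mark the roles as in the plot of members by array. Nearly all intervals span 0, and Vldlr (0.26 on average, 0.12 to 0.40) lies above it except with 5'ss AMO.

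The contrast between the arms was then set out by AMO. With control AMO the median change was -0.085 for the chaperones (3 of 14 above 0) and 0.016 for the Atf4 arm (9 of 16 above 0), a difference of -0.101. With pA AMO the medians were -0.002 and 0.015, and with 5'ss AMO -0.041 and -0.025, which gives differences of -0.016 and -0.017. Leaving out 1 array at a time, the pA difference turned to 0.006 without the second array with PDGF-AA and to 0.004 without the first array lacking it, and reached -0.049 without the first with PDGF-AA. The 5'ss difference became -0.066 and -0.040 without the first and the second array with PDGF-AA, and -0.033 and -0.059 without the first and the second lacking it. The average over AMOs gave -0.058. Taken per array, the chaperone median minus the Atf4-arm median ran from -0.113 to 0.076, and the spread between replicates of a group was 0.047 (pooled SD). In control AMO cultures it was 0.023 and -0.113 with PDGF-AA, against 0.076 and 0.075 without it. Those groups did not overlap, but the arrays with PDGF-AA lay far apart: the difference of -0.101 was -0.002 without the second of them and -0.189 without the first, and -0.062 without the first array lacking PDGF-AA. In pA AMO cultures it was -0.003 and -0.057 with PDGF-AA, against 0.008 and -0.041 without it. In 5'ss AMO cultures it was 0.018 and -0.025 with PDGF-AA, against 0.059 and 0.037 without it. Every AMO thus gave a lower mean with PDGF-AA, and the pA arrays overlapped. Within same-numbered arrays, a reading added after the values were seen, the difference with minus without PDGF-AA was -0.011 and -0.016 for pA AMO, -0.041 and -0.062 for 5'ss AMO, and -0.053 and -0.189 for control AMO. All 6 pairs were below 0, and the mean of the pairs was -0.013 for pA, -0.051 for 5'ss and -0.121 for control AMO. These means differ from the differences between median changes given above because a median over genes was taken on each array. No p is given for these medians, since the members were chosen as a list.

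**Figure D3:**
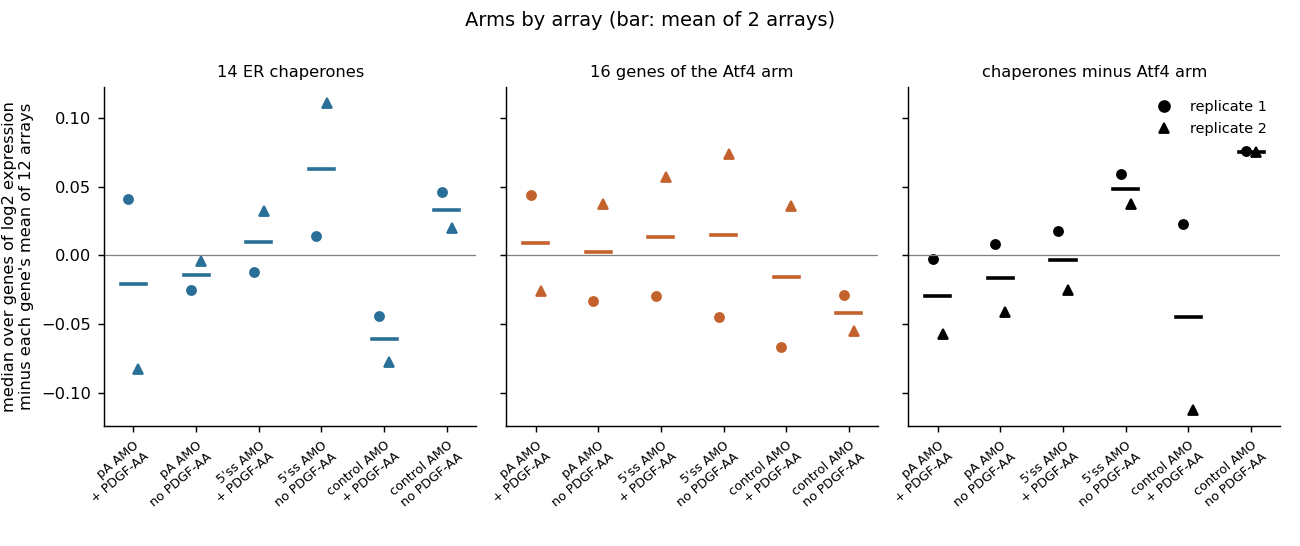
Median over the 14 ER chaperones, over the 16 genes of the Atf4 arm, and their difference, on each array, each gene taken as log2 expression minus its mean of 12 arrays; circles are replicate 1, triangles replicate 2, bars the mean of 2 arrays. The difference is highest with control AMO without PDGF-AA (0.076 and 0.075) and lowest on the second array with control AMO and PDGF-AA (-0.113).

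Within single AMOs, 0 of 36 members passed in limma, as did 0% of all clusters. At an unadjusted p under 0.05, Vldlr alone was found with pA AMO (2.78% of members, 2.37% of clusters) and with control AMO (2.78%, 4.81%), and no member with 5'ss AMO, where 1.64% of clusters were. Members above 0 numbered 20 of 36 with pA AMO (background 47.4%), 13 with 5'ss AMO (background 48%) and 15 with control AMO (background 53.3%). Separate ranges of 2 arrays against 2 were common, at 10 members with pA AMO (27.8%, background 23.7%), 10 with 5'ss AMO (27.8%, background 19.6%) and 15 with control AMO (41.7%, background 31%). Control AMO gave 7 members higher with PDGF-AA (19.4%, background 17.5%) and 8 lower (22.2%, background 13.6%). pA AMO gave 7 higher (19.4%, background 11.4%) and 3 lower (8.33%, background 12.3%), and 5'ss AMO gave 3 higher (8.33%, background 9.13%) and 7 lower (19.4%, background 10.5%). Member changes ran from -0.11 to 0.37 with pA AMO, from -0.21 to 0.11 with 5'ss AMO and from -0.19 to 0.37 with control AMO. For the differences between PDGF-AA effects of the AMOs, 0 members passed and 0 had an unadjusted p under 0.05. Those differences ran from -0.25 to 0.21 for pA minus control, from -0.33 to 0.18 for 5'ss minus control and from -0.14 to 0.33 for pA minus 5'ss.

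The second question concerns the AMOs, averaged over cultures with and without PDGF-AA. Between pA and control AMO the members were balanced, with 18 of 36 above 0 (background 45.1%) and medians of 0.001 for the chaperones and -0.005 for the Atf4 arm. Between 5'ss and control AMO, 12 of 14 chaperones and 10 of 16 genes of the Atf4 arm lay above 0, with medians of 0.060 and 0.037, while 46.6% of all clusters did, with a median of -0.008. Between pA and 5'ss AMO, 2 of 14 chaperones and 6 of 16 genes of the Atf4 arm lay above 0, with medians of -0.062 and -0.020, while 49.5% of all clusters did, with a median of -0.001. These comparisons share arrays, since each AMO enters a pair of them. In limma 0 of 36 members passed in each of them, as did 0% of all clusters. With the replicate block 0 members passed either, against 0.0138% of clusters for 5'ss against control and 0.0275% for pA against 5'ss AMO. At an unadjusted p under 0.05 there was 1 member for pA against control (2.78%, background 3.25%), 2 for 5'ss against control (5.56%, background 4.8%) and 1 for pA against 5'ss (2.78%, background 3.47%).

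Slc7a11 showed the largest difference of any member between AMOs. It read 8.18 and 8.40 for pA AMO and PDGF-AA, 8.11 and 8.35 for 5'ss AMO and PDGF-AA, and 7.61 and 8.18 for control AMO and PDGF-AA. Without PDGF-AA it read 8.16 and 8.55 for pA AMO, 8.12 and 8.49 for 5'ss AMO, and 8.03 and 8.09 for control AMO. The control arrays were lower within each PDGF-AA dose, apart from the second with PDGF-AA, which reached the first arrays of the other AMOs. Within same-numbered arrays, the control array was below that of each other AMO at each dose. The difference from control was 0.35 with pA AMO (SE 0.146, 95% interval 0.02 to 0.67, adjusted p = 1) and 0.29 with 5'ss AMO (SE 0.146, adjusted p = 0.995). Without the first array with control AMO and PDGF-AA these became 0.20 and 0.15. Its second replicate was above the first in all 6 groups, as for 6 of the 36 members (16.7%) and 17% of all clusters.

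The serine enzyme Phgdh gave a like picture. With PDGF-AA it read 7.82 and 7.82 for pA AMO, 7.69 and 7.98 for 5'ss AMO, and 7.39 and 7.65 for control AMO. Without PDGF-AA it read 7.66 and 7.86, 7.69 and 8.01, and 7.64 and 7.69. The 4 arrays with 5'ss AMO were all above the 4 with control AMO, although the nearest arrays both round to 7.69, with a difference of 0.25 (SE 0.104, 95% interval 0.02 to 0.48, adjusted p = 0.995). Between pA and control AMO the difference was 0.20 (SE 0.104), and 0.13 without the first array with control AMO and PDGF-AA. Psat1, the next enzyme of the pathway, was at 0.10 (SE 0.090) with pA and 0.07 (SE 0.090) with 5'ss AMO relative to control.

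Members whose arrays did not overlap between AMOs are named here; they were picked from their values. Between 5'ss and control AMO, 4 members were higher on all 4 arrays (11.1%, background 1.26%) and 0 lower (background 1.71%), with 2.97% of clusters separate in either direction. Besides Phgdh these were Xbp1, Hspa5 and Slc3a2. Xbp1 was higher by 0.18 (SE 0.075, 95% interval 0.01 to 0.35, adjusted p = 0.995), with 11.10 to 11.23 on the 5'ss arrays against 10.86 to 11.08 on the control arrays. Hspa5 averaged 12.64 ± 0.031 with 5'ss AMO and 12.57 ± 0.024 with control AMO (SD, n = 4 each), a difference of 0.07 (SE 0.065). Slc3a2 read 11.39 and 11.45 for 5'ss AMO and PDGF-AA and 11.44 and 11.46 without PDGF-AA, against 11.32 and 11.33, and 11.37 and 11.39, with control AMO, a difference of 0.09 (SE 0.061) whose nearest arrays both round to 11.39.

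Between pA and 5'ss AMO, 3 members were lower on all 4 arrays (8.33%, background 1.65%) and 0 higher (background 0.996%), with 2.65% of clusters separate in either direction. Hyou1 read 9.64 and 9.61 for pA AMO and PDGF-AA and 9.67 and 9.58 without it, against 9.78 and 9.86, and 9.84 and 9.87, with 5'ss AMO. With control AMO it read 9.70 and 9.63 with PDGF-AA, and 9.82 and 9.85 without it. The control arrays thus lay near the pA arrays with PDGF-AA and near the 5'ss arrays without it. The pA minus 5'ss difference was -0.21 (SE 0.063, 95% interval -0.35 to -0.07), with an adjusted p of 1 in limma and 0.298 with the replicate block. The others were Calr, at -0.12 (SE 0.068), and Slc3a2, at -0.11 (SE 0.061). Calr, which binds calcium and glycoproteins in the ER, read 12.66 and 12.49 for pA AMO and PDGF-AA and 12.65 and 12.59 without it, against 12.74 and 12.68, and 12.72 and 12.73, with 5'ss AMO. Its difference was -0.07 without the second pA array with PDGF-AA. Between pA and control AMO only Sdf2l1 was separate, lower by 0.17 (SE 0.083, adjusted p = 1), or by 0.09 without its lowest array (1 of 36 members separate, 2.78%; background 1.71% lower and 2.65% in either direction). Its nearest pA and control arrays both round to 8.59. Chac1 was at -0.17 (SE 0.088) for pA against control and at -0.14 (SE 0.088) for pA against 5'ss AMO, with overlapping arrays. The last value was -0.08 without the second pA array with PDGF-AA.

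**Figure D4:**
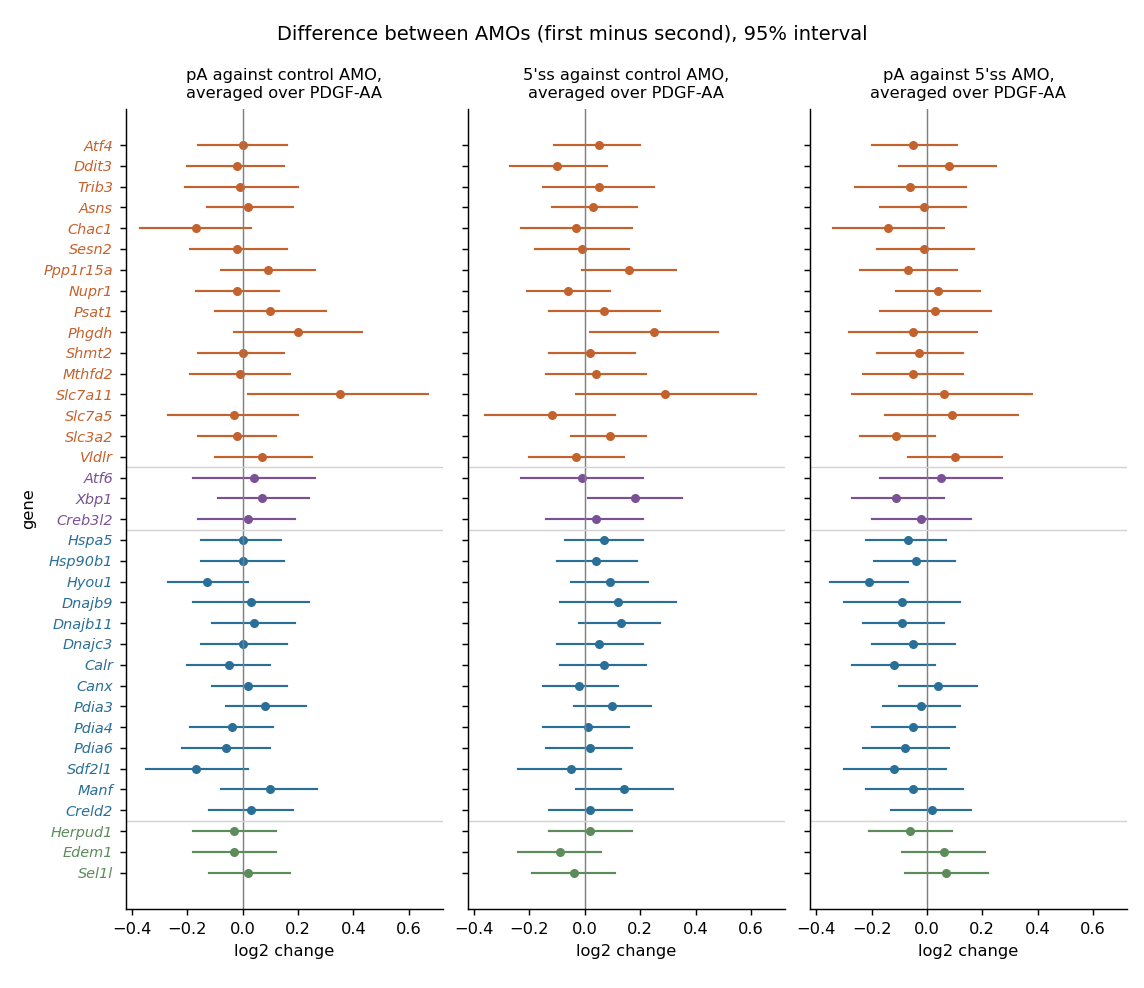
Log2 difference of each member between AMOs (first minus second; points) with its 95% interval (lines), averaged over PDGF-AA doses; colours mark the roles. Points for the chaperones lie mostly right of 0 for 5'ss against control AMO (12 of 14) and left of 0 for pA against 5'ss AMO (12 of 14), with intervals that nearly all span 0.

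The AMOs were also compared at each dose. Without PDGF-AA, 29 of 36 members were above 0 for 5'ss against control AMO (background 51%) and 13 had separate arrays in that direction (36.1%, background 12.6%), against 2 that were separate and lower (5.56%, background 11.1%). For pA against 5'ss AMO without PDGF-AA, 7 of 36 were above 0 (background 48.9%), 12 were separate and lower (33.3%, background 10.9%) and 1 separate and higher (2.78%, background 9.09%). For pA against control AMO without PDGF-AA, 16 of 36 were above 0 (background 49.9%), 12 were separate and lower (33.3%, background 12.3%) and 4 separate and higher (11.1%, background 10.5%). With PDGF-AA, 23 of 36 were above 0 for 5'ss against control AMO (background 44.4%), with 10 separate and higher (27.8%, background 12.5%) and 6 separate and lower (16.7%, background 17.7%). For pA against 5'ss AMO with PDGF-AA, 16 of 36 were above 0 (background 48.7%), with 6 separate and higher (16.7%, background 14.9%) and 7 separate and lower (19.4%, background 14.9%). For pA against control AMO with PDGF-AA, 24 of 36 were above 0 (background 44.1%), with 7 separate and higher (19.4%, background 12.3%) and 5 separate and lower (13.9%, background 19.2%), so that more members leaned upward with PDGF-AA and more were separate and lower without it. The difference between doses was tested gene by gene through the interaction given above, in which 0 members passed.

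**Figure D5:**
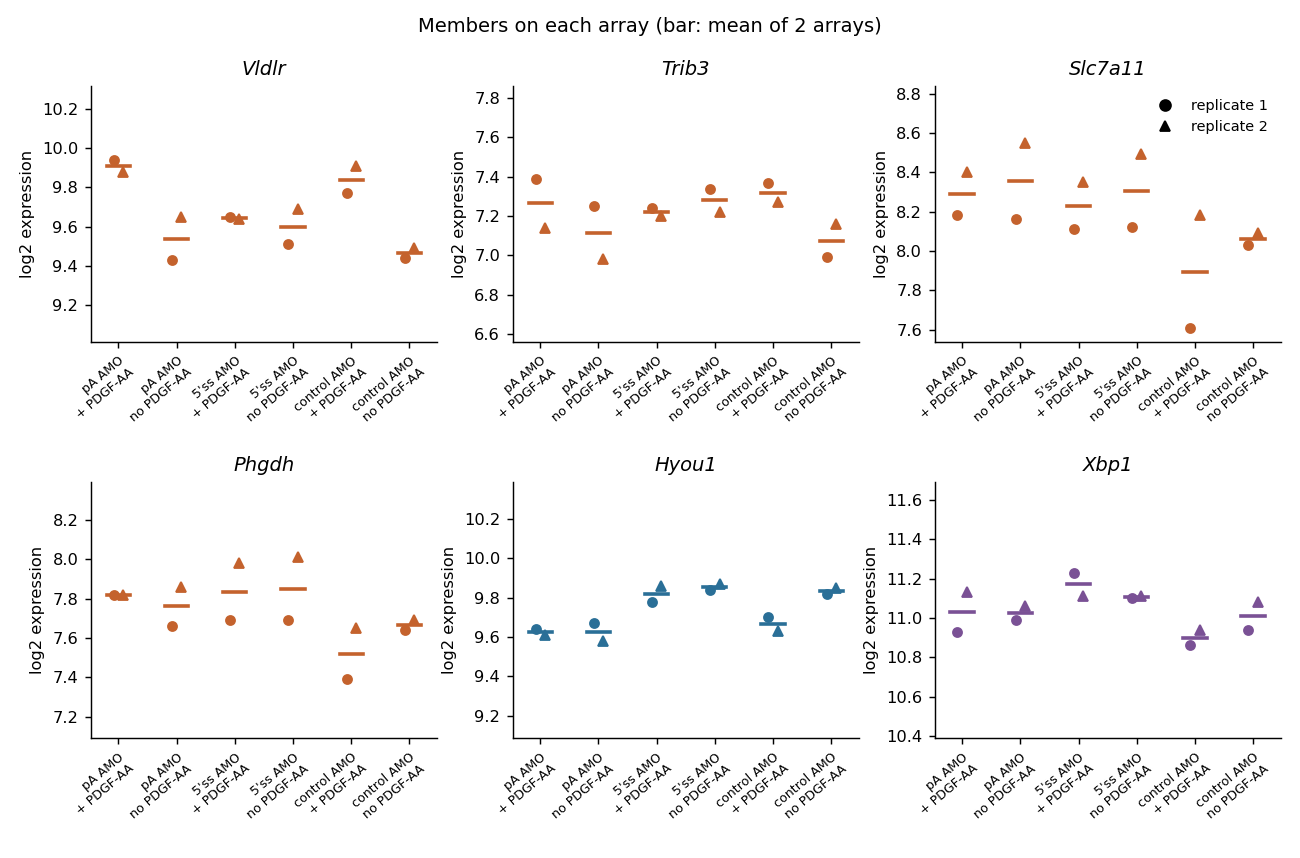
Log2 expression of 6 members on each array (circles replicate 1, triangles replicate 2, bars the mean of 2 arrays), each panel spanning the same height around the gene's mean. Vldlr is higher with PDGF-AA in pA and control AMO cultures, Hyou1 splits pA from 5'ss AMO, and Slc7a11 and Phgdh are lowest on the first array with control AMO and PDGF-AA.

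Other genes of the same pathways, from lists that hold no member, gave the setting. Of 24 further ATF4 targets and amino acid genes, 0 passed for PDGF-AA averaged over AMOs, with a median of -0.005 and 11 above 0. Atf5, a transcription factor translated like ATF4, was at 0.25 (SE 0.063, adjusted p = 0.604), and Cth, which makes cysteine, at -0.26 (SE 0.108, adjusted p = 1). Of 35 further ER folding, secretion and degradation genes, 0 passed, with a median of -0.036 and 8 above 0, so they lay on the same side as the member chaperones. The largest changes of that list were those of Fkbp11 at -0.14 (SE 0.067) and Pdia5 at -0.13 (SE 0.066), and its highest was 0.07. The 11 cytosolic tRNA synthetases, another group of ATF4 targets, had a median of -0.003, and the 10 cytosolic heat shock genes one of -0.019. A mixed list of 10 eIF2α kinases, sensors and related genes, among them Ppp1r15b, Mbtps1, Creb3 and Creb3l1, had one of -0.029. In each of these lists 0 passed.

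For 5'ss against control AMO the 35 further ER genes had a median of 0.011 (20 above 0), against 0.060 for the member chaperones, and the 24 further ATF4 targets one of -0.006 (11 above 0). Cth was at 0.34 (SE 0.132, adjusted p = 0.995) in that comparison. Interferon response genes, with which the eIF2α kinase gene Eif2ak2 is known to be induced, lay lower for 5'ss against control AMO in 8 of 8 (median -0.485, 0 passed) and higher for pA against 5'ss AMO in 8 of 8 (median 0.758, 0 passed). Eif2ak2 itself was at -0.08 (SE 0.103) for 5'ss against control and at 0.23 (SE 0.103) for pA against 5'ss AMO. The adipocyte markers had a median of 0.388 for 5'ss against control AMO and of -0.444 for pA against 5'ss AMO, with 0 passing. The part of either list in the values of the chaperones was not tested.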

How the data were processed

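Total RNA (100 ng) was hybridised to Affymetrix Mouse Gene 1.0 ST arrays. The deposited values are on the log2 scale. Per the submitters' processing notes, the authors used RMA, which corrects background, quantile-normalizes the arrays and summarises probes, and the Affymetrix Expression Console, with no version given. Scanner files were not used here. Of 35556 transcript clusters, 21789 have exactly 1 gene symbol in the platform annotation, 1621 have several and 12146 are unlisted. RefSeq (GRCm38.p6) held 21698 of the 21789 gene identifiers, and 0 symbols changed.

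Each group had its own mean in a limma fit (version 3.58.1, R 4.3.3) over all 12 arrays, with 6 residual degrees of freedom, 16 contrasts, empirical Bayes moderation, Benjamini-Hochberg adjustment over 21789 clusters and a threshold of 0.05. The fit was also run on simulated data with noise drawn independently for each array. Those data hold no shift shared by same-numbered arrays, so they cannot show how such a shift bears on the p-values. Intervals are 95%. Replicate numbers recur in all groups, and no label says what they share. Same-numbered arrays deviated together in 15 of 15 pairs of groups (correlations of 0.20 to 0.61). The numbers were therefore tried as a block, with 5 residual degrees of freedom, as an alternative to the main fit, which ignores them. The printed SEs, intervals and overlaps of arrays come without the block, so a shift shared by same-numbered arrays stays in them. The same holds for adjusted p-values unless the block is named.

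The members, lists, tests and alternatives were chosen with earlier results of these data known. All members are named by role. Array values are given in full for 10 key members, for any member past the threshold, and, in the groups concerned, for the 2 members of each large arm with the largest change in each PDGF-AA and averaged AMO comparison. Other lists contribute at most their 2 largest changes. Alternatives were the block, leaving out clusters whose mean log2 lay under 6.10 (40 percent of them), testing every cluster of the table, a further quantile normalization, centring on array medians, a trend with robust fitting, array weights, fitting only the arrays compared, means over rows or members, adding the degradation genes to the chaperones, and leaving out each array.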

Additional observations from a re-analysis of the deposited data

How the results depend on the processing

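The count of members past the threshold was 0 in all 16 comparisons under each of 8 other settings and in each of 12 fits that left out an array (fitting only the arrays compared applied to 15 of the comparisons), with a smallest adjusted p of 0.0981 (trend with robust fitting, PDGF-AA averaged over AMOs). With the replicate number as a block, it was 0 as well (smallest adjusted p 0.13, Vldlr), although 21 clusters passed for PDGF-AA averaged over AMOs, 3 for 5'ss against control AMO and 6 for pA against 5'ss AMO; the block changed no call of a member. For the chaperone minus Atf4-arm difference, 77 of 80 values moved by less than the spread between replicates (0.047). Several of these differences are themselves smaller than that spread, so a turn of sign can count as no move. An example is the PDGF-AA difference with pA AMO, at -0.016 and up to 0.006 on leaving out 1 array. Means over members in place of medians gave -0.043 for pA against control AMO averaged over doses, 0.091 for the PDGF-AA effect of 5'ss minus control AMO and -0.009 for that of pA minus 5'ss AMO, and the cause was not tested. Leaving out 1 array at a time kept 179 of 192 such values within that spread. The PDGF-AA difference then ran from -0.189 to -0.002 with control AMO and from -0.066 to -0.017 with 5'ss AMO. Without PDGF-AA it ran from -0.091 to -0.032 for pA against control and from -0.092 to 0.001 for pA against 5'ss AMO. With PDGF-AA it ran from -0.029 to 0.051 for pA against control and from -0.019 to 0.120 for 5'ss against control AMO. Between PDGF-AA effects it ran from 0.022 to 0.142 (pA minus control), from -0.016 to 0.093 (5'ss minus control) and from -0.028 to 0.079 (pA minus 5'ss). Of single members, the PDGF-AA change of Sdf2l1 with pA AMO ran from -0.26 to 0.06 and that of Slc7a5 with 5'ss AMO from -0.36 to 0.12, and the other named changes kept their sign. With 2 arrays a group and values that come after the authors' normalization, the printed intervals are not adjusted for the number of clusters, and changes larger than their half-widths, such as that of Vldlr, were not called.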
